A study of Homo sapiens with 4 samples.

Results

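Histone genes were examined in MDA-MB-231, an established line of human breast cancer cells without estrogen receptor. Genes were chosen by name from the 32955 in the deposited table, and 84 were found. Of these, 70 carry a HIST name followed by the histone class, and 14 are other histone genes (H1F0, H1FX, H1FNT, H1FOO, H2AFB1, H2AFJ, H2AFV, H2AFX, H2AFY, H2AFY2, H2AFZ, H3F3A, H3F3B and H3F3C). A further 12 names that end as pseudogene names do were left out. The choice by name used no expression value, although earlier results of these data were known when it was made. In the coordinates of the table (hg38), 50 HIST1 genes lie at chr6:26020490-27893843, 15 HIST2 and 4 HIST3 genes on chromosome 1 and HIST4H4 on chromosome 12. GENCODE annotates 5 of the 70 as pseudogenes (HIST2H2BA, HIST2H2BB, HIST2H2BC, HIST2H2BD and HIST3H2BA).

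RNA-seq was performed on 4 libraries, of which 2 were given mimic NC (an oligonucleotide used as control) and 2 were given miR-217 mimic (an RNA made to act as the microRNA miR-217). The study compared them to look for genes that miR-217 lowers. All 4 were grown in DMEM with fetal bovine serum, both oligonucleotides were supplied by RiboBio and delivered with the RiboFECT CP kit, and RNA was isolated with TRIzol and prepared with a stranded mRNA kit. The labels number the libraries of each group 1 and 2 and do not say what the number marks, nor whether the libraries came from separate cultures, so p-values measure the spread between these libraries only, which may be technical.

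Histone proteins package DNA. The core histones H2A, H2B, H3 and H4 form the nucleosome, and the linker histone H1 binds between nucleosomes. The clustered HIST genes are mostly short, lack introns and are classed as replication-dependent. They are transcribed chiefly in S phase, and their mRNAs usually end in a conserved stem-loop in place of a poly(A) tail. The stem-loop is bound by the protein SLBP, which guides the processing and the decay of these mRNAs. Some clustered genes also make polyadenylated mRNAs, chiefly in differentiated or resting cells. The other genes encode mostly replacement histones such as H3.3, H2A.Z and H1.0, which are made outside S phase from polyadenylated mRNAs.

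The stem-loop was searched in the transcripts of GENCODE 29 (GRCh38) as a description of what the deposited counts could hold. It was found in 35 of the 70 HIST-named genes and in 1 of the 14 other genes, H2AFX. Of 9883 other expressed genes with an annotated 3′UTR, 11 (0.111%) held a match after the stop codon. In the histone genes whole transcripts of every type were searched, pseudogenes included and at any level, so these shares come from unlike searches. The matches below are shown to let the versions be compared, with the stem-loop in capitals and 5 bases on either side.
HIST2H2BE: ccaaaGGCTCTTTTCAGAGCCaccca
HIST1H2BG: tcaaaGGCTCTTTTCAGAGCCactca
HIST1H2AC: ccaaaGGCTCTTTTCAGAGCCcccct
HIST1H2BD: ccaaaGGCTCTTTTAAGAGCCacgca
HIST1H4E: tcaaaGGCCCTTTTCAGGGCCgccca
HIST2H4A: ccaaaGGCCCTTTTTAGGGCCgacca
H2AFX: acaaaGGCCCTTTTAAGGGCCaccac
The version of HIST2H2BE, HIST1H2BG and HIST1H2AC was the most frequent, in 18 genes. The version of HIST1H2BD was held by 5 genes, that of HIST1H4E by 5 H4 genes and that of HIST2H4A by 3 H4 genes. The stem-loop of HIST2H2BE lies at chr1:149886188-149886203, 57 bases after the stop codon and 1729 bases before the end of the annotated transcript. That of HIST1H2AC lies at chr6:26124669-26124684, with 1114 bases of transcript after it. A poly(A) signal (AATAAA or ATTAAA in the last 40 bases of a transcript) was found in 24 of the 35 HIST-named genes with a stem-loop and in 13 of the 14 other genes. The annotated models of 28 HIST-named genes held the coding sequence only, so neither feature could be seen in them.

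The promoters of histone genes are known for a TATA box, for a box bound by NF-Y and, in H2A and H2B genes, for an octamer bound by OCT1. RefSeq promoter windows (GRCh38.p14, 250 bases before to 50 after the gene's start) were matched for 61 HIST-named and 12 other genes. The windows of 6 genes that the results below turn on are shown, on the strand of the gene. Capitals mark 3 motifs on either strand, and overlapping matches run together. The TATA box was searched as TATAAA, the box of NF-Y was searched with the letters CCAAT, and the octamer was searched with the letters ATTTGCAT.
HIST2H2BE (chr1:149886633-149886932, minus strand): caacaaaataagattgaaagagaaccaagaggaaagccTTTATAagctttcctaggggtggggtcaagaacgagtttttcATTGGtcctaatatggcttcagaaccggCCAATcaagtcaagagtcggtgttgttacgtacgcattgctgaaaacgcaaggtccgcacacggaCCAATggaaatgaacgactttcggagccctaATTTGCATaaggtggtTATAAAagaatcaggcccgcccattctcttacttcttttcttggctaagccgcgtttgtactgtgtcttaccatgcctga
HIST1H2BG (chr6:26216639-26216938, minus strand): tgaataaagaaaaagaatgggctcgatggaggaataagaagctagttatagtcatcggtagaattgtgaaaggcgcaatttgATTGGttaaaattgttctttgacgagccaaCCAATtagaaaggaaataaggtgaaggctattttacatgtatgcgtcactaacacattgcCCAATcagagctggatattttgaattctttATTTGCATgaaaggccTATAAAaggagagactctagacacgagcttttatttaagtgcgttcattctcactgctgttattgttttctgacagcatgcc
HIST1H2BK (chr6:27146806-27147105, minus strand): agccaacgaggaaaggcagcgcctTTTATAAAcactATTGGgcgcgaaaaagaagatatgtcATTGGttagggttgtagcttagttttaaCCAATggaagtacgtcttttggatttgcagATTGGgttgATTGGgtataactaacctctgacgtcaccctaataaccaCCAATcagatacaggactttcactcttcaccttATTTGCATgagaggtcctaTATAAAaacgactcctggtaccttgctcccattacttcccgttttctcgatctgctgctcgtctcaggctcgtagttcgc
HIST1H1C (chr6:26056421-26056720, minus strand): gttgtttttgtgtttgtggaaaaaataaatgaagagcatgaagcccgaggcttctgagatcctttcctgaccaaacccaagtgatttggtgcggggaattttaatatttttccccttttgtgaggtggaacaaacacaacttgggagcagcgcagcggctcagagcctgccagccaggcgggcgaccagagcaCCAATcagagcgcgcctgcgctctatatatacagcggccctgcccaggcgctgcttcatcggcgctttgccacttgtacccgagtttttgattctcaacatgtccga
HIST2H4A (chr1:149832407-149832706, plus strand): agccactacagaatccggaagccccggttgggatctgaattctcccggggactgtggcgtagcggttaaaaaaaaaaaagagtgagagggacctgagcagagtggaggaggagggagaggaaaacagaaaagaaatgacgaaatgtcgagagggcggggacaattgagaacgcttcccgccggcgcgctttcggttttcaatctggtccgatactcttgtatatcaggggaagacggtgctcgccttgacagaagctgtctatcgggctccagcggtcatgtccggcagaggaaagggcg
H3F3A (chr1:226061581-226061880, plus strand): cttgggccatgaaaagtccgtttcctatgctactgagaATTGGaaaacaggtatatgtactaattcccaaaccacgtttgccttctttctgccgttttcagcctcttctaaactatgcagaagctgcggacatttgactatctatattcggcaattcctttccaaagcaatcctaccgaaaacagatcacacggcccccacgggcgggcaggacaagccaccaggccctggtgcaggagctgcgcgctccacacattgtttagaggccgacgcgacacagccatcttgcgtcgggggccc
HIST2H2BE, HIST1H2BG and HIST1H2BK share an order of motifs, in which a CCAAT at -77, -78 and -82 is followed by the octamer at -46, -48 and -49 and by a TATA box at -30, -32 and -30, counted from the start of each gene. HIST1H1C held a single CCAAT, HIST2H4A none of the 3 motifs, and H3F3A a CCAAT on the opposite strand.

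TATAAA was found in 65.6% of the HIST-named windows (40 of 61), in 33.3% of the other histone windows (4 of 12) and in 11.5% of all 35116 windows. CCAAT was held by 85.2% of the HIST-named windows and 83.3% of the other histone windows, against 34.6% of all windows. The classes differed in it, since every H1, H2A, H2B and H3 window held CCAAT but 3 of 12 H4 windows did. The octamer ATTTGCAT was found in 1.77% of all windows, in 10 of 15 H2A and 13 of 17 H2B windows, and in none of the 5 H1, 12 H3 and 12 H4 windows. Head-to-head H2A and H2B genes share part of their windows, so these counts are not independent of each other. A match is a description of the sequence and not a binding site.

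**Figure D1:**
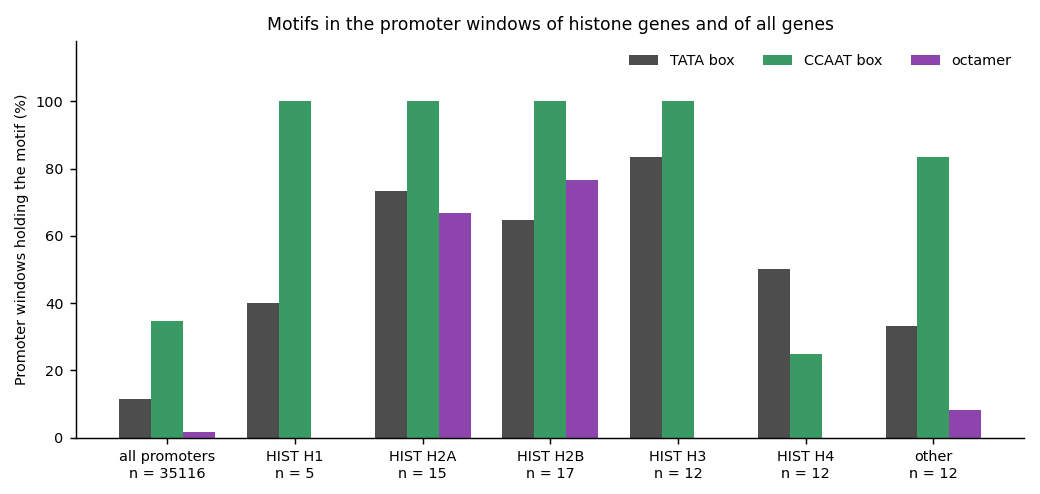
Share of promoter windows (vertical axis, percent) that hold the TATA box, the CCAAT box or the octamer on either strand, for all windows, for each class of HIST-named genes and for the other histone genes, with the number of windows under each group. The octamer bars stand at 66.7% and 76.5% for H2A and H2B and at 0% for H1, H3 and H4, against 1.77% of all windows.

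Sequencing depth was uneven and moved with the number. In mimic NC, 57933183 reads were recovered from the table for number 1 and 47374957 for number 2. In miR-217 mimic they were 53356283 for number 1 and 32635814 for number 2. The share of mitochondrial genes was 3.56% and 3.58% in the libraries numbered 1 and 3.97% and 4.78% in those numbered 2. Markers of the line were measured, with VIM at 27.9 to 36.9, CD44 at 13.5 to 26.0 and EGFR at 19.5 to 22.7 RPKM, while ESR1 reached 0.08 and CDH1 0.43 RPKM. PGR was not analysed here. Of 4 markers of other cell types, PTPRC was highest at 0.35 to 1.25 RPKM, and CD3E, PECAM1 and MYH11 were under 1 in every library. RPKM counts reads per kilobase of a gene's model and per 1000000 reads of the library, so that genes can be compared per length. In bulk RNA, fewer cells that make a transcript and less of it per cell cannot be told apart. An mRNA kit may capture mRNA without a poly(A) tail poorly. The level of a HIST-named gene here need not follow its amount in the cells, which was not tested.

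The HIST-named genes summed to 432 and 316 RPKM in both mimic NC libraries (number 1, then 2) and 414 and 358 in both miR-217 mimic libraries. The other histone genes summed to 259, 248, 258 and 226 RPKM in the same order. The ratio of the sums was 1.53 ± 0.175 (SD, n = 4), and it was above 1 in each library, from 1.28 to 1.67. These sums run over 70 HIST-named and 14 other genes, so they do not compare single genes. The order turned with the measure. HIST-named genes took 0.0276% to 0.0373% of the reads and the other genes 0.0845% to 0.0938%, a ratio of 0.366, because the other genes have longer models. The median over members was 0.94 RPKM for HIST-named and 9.44 RPKM for other genes, with a mean ratio of 0.102 over the libraries.

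A few genes made up most of the HIST-named level. HIST1H1C and HIST1H2BK together took 45.5% to 47.8% of the summed RPKM in a library, and the 6 highest took 68.0% to 73.2%. At the other end, 36 of the 70 HIST-named genes and 5 of the 14 other genes had a mean under 1 RPKM, and 16 and 2 of them had no read in at least 1 library. These 41 genes were not tested, and a value of 0 reads allows up to 3 reads by counting error alone. The tested sets were thus 34 HIST-named genes (2 H1, 10 H2A, 12 H2B, 5 H3 and 5 H4) and 9 other genes.

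**Figure D2:**
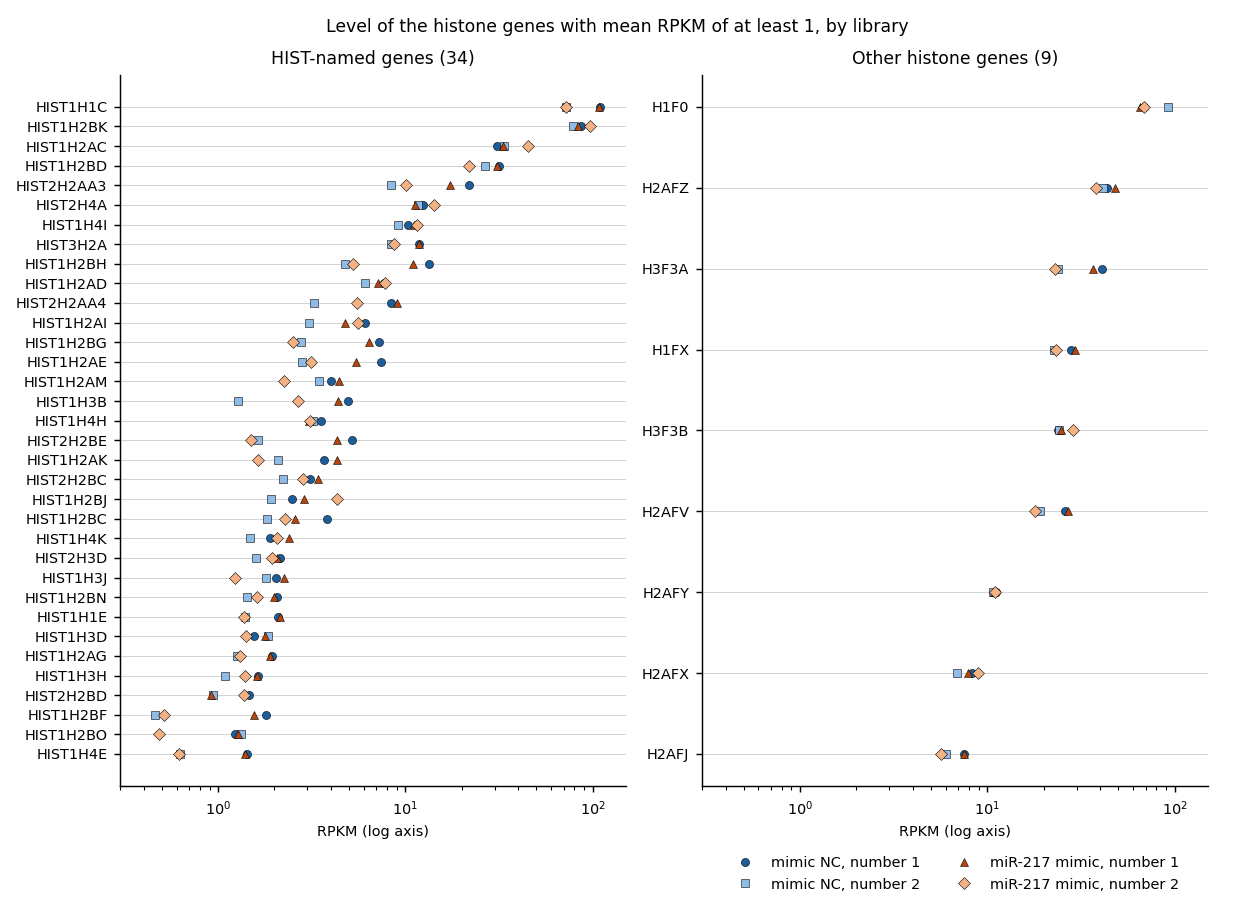
RPKM (horizontal log axis) of the 34 HIST-named and 9 other histone genes with a mean of at least 1 RPKM, ordered by mean, with 1 point per library. HIST1H1C and HIST1H2BK lead the HIST-named genes at means of 90.3 and 86.4 RPKM, and in genes such as HIST2H2BE and H3F3A the points of both libraries numbered 2 lie to the left of both numbered 1.

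Linker histones were led by HIST1H1C (chr6, H1.2), at 109 and 72.1 RPKM in mimic NC numbers 1 and 2 and 108 and 72.5 in miR-217 mimic numbers 1 and 2. It held 96.0% to 97.4% of the HIST-named H1 level in each library. H1F0 (H1.0, a replacement linker histone that accumulates in resting cells) was at 69.0, 92.6, 65.2 and 68.7 RPKM in the same order. One mimic NC library, number 2, stood above the other 3 for H1F0. H1FX (H1.X) was at 28.1, 22.8, 29.6 and 23.3 RPKM, and 22.9% of its exon bases lie opposite an exon of H1FX-AS1. HIST1H1E (H1.4), the only other HIST-named H1 gene tested, was at 1.38 to 2.14 RPKM.

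H2B genes made the largest class sum, 127 to 164 RPKM. HIST1H2BK was at 87.2, 78.9, 83.0 and 96.3 RPKM in mimic NC numbers 1 and 2 and miR-217 mimic numbers 1 and 2. Its counted model is 381 bases of coding sequence, whereas the RefSeq gene spans 8566 bases, so transcripts that extend past the coding sequence were counted over that part only. HIST1H2BD was at 31.7, 26.7, 30.9 and 22.0 RPKM. For HIST1H2BK the groups and the numbers overlapped, and for HIST1H2BD both libraries numbered 2 were below both numbered 1.

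H2A genes summed to 74.7 to 108 RPKM. HIST1H2AC was at 31.0, 33.7, 33.1 and 45.3 RPKM in the same order of libraries, highest in miR-217 mimic number 2. HIST2H2AA3 was at 21.9, 8.42, 17.3 and 10.1 RPKM, and both libraries numbered 2 were below both numbered 1. HIST2H2AA4, a near-identical neighbour on chromosome 1, was at 8.42, 3.26, 9.01 and 5.54 RPKM. Reads that fit both copies could have been split or dropped in counting, so the level of each is uncertain.

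HIST-named H3 and H4 genes were low in these libraries. The HIST-named H3 genes summed to 11.8 to 17.2 RPKM, led by HIST1H3B at 1.28 to 4.96 RPKM. H3F3A and H3F3B, which encode the same replacement protein H3.3, together summed to 47.8 to 64.9 RPKM. HIST-named H4 genes summed to 27.4 to 32.5 RPKM, of which HIST2H4A gave 11.2 to 14.2 and HIST1H4I 9.15 to 11.5 RPKM. HIST2H4B, the near-identical copy of HIST2H4A, was listed at a mean of 0.303 RPKM, and the copies HIST2H3A and HIST2H3C at means of 0.829 and 0.905 RPKM. The third of that group, HIST2H3D, was at 1.59 to 2.14 RPKM, and the values of all these copies carry the same uncertainty.

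Among replacement H2A genes, H2AFZ (H2A.Z.1) was highest at 43.5, 41.5, 48.1 and 38.1 RPKM in mimic NC numbers 1 and 2 and miR-217 mimic numbers 1 and 2. H2AFV (H2A.Z.2) was at 26.0, 19.2, 26.9 and 17.9 RPKM. H2AFX, which is phosphorylated at DNA breaks, was at 6.91 to 8.96 RPKM. H2AFY (macroH2A1) was at 10.7 to 11.1 RPKM, although 30.9% of its counted exon bases lie opposite exons of other genes. H2AFJ was at 5.68 to 7.51 RPKM, and H1FNT, H1FOO and H2AFB1, known from germ cells, had at most 5 reads in a library. H3F3C and H2AFY2 (macroH2A2), the other low genes, had at most 22 reads in a library.

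**Figure D3:**
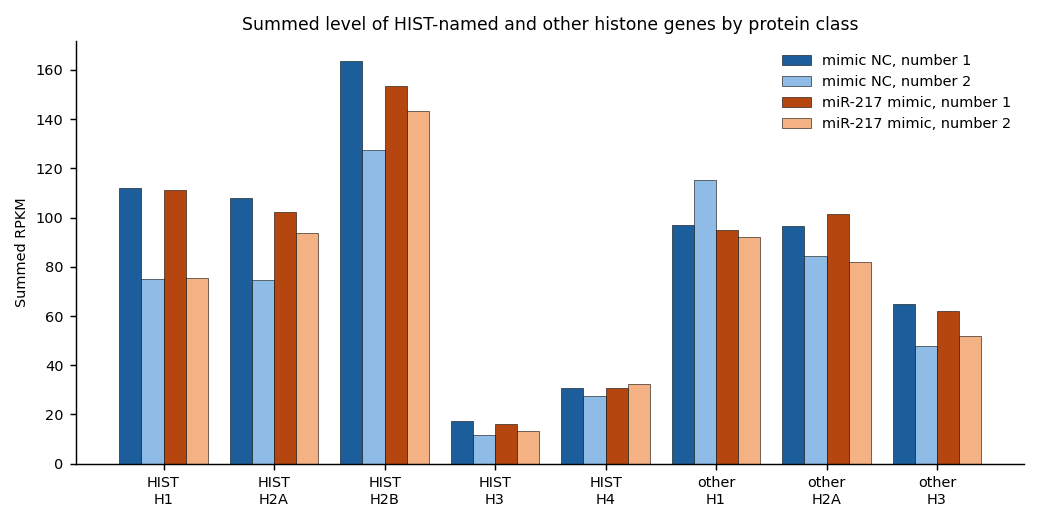
Summed RPKM (vertical axis, from 0) of the HIST-named genes by class (H1, H2A, H2B, H3, H4) and of the other histone genes by class (H1, H2A, H3), with 1 bar per library. HIST-named H1 stands at 112 and 111 RPKM in the libraries numbered 1 and at 75.1 and 75.3 in those numbered 2, while HIST-named H4 lies between 27.4 and 32.5 RPKM.

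Levels within an annotated class varied widely. The 28 genes counted over coding sequence only had a median of 0.596 RPKM with a range of 0.0227 to 90.3, and they gave 53.2% to 55.3% of the HIST-named sum. The 24 with a stem-loop and a poly(A) signal had a median of 1.69 RPKM, and the 11 with a stem-loop and no poly(A) signal 0.541 RPKM. These classes follow the annotation, which also sets the length that RPKM divides by, and the differences between them were not tested.

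Many H2A and H2B genes start back to back. With at most 1000 bases between annotated starts, 13 such pairs were found, of which 12 joined an H2A and an H2B gene and 2 held an annotated pseudogene. HIST1H2BG and HIST1H2AE start 283 bases apart and had like mean levels of 4.72 and 4.70 RPKM. HIST1H2BK and HIST1H2AH, 331 bases apart, were at 86.4 and 0.263 RPKM. HIST1H2AC, 219 bases from HIST1H2BC, was at 35.8 RPKM against 2.62 RPKM. The levels differed by over 2 times in 10 of the 13 pairs and by over 10 times in 5.

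**Figure D4:**
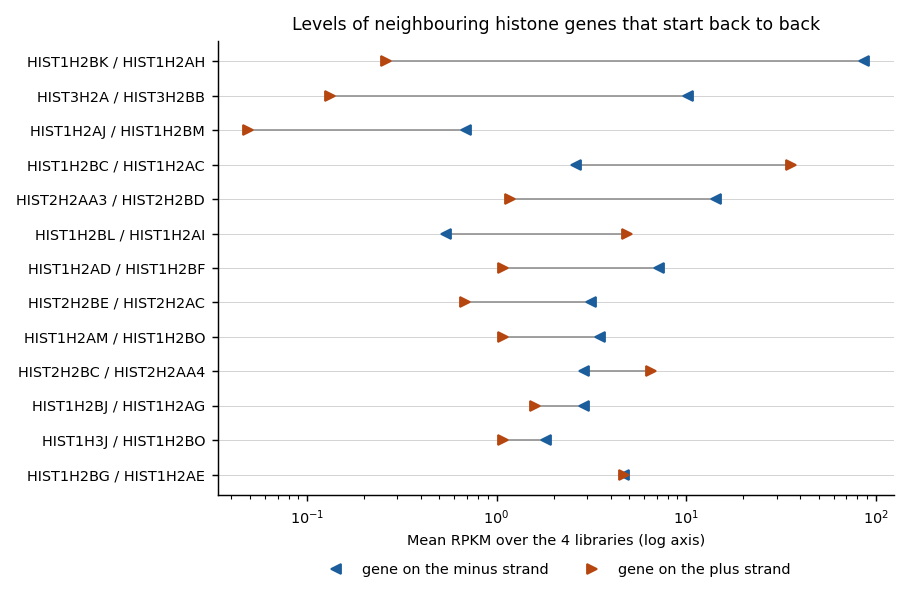
Mean RPKM over the 4 libraries (horizontal log axis) of the genes of 13 back-to-back pairs, with 1 line per pair and a marker for the gene of each strand, ordered by their ratio. HIST1H2BG and HIST1H2AE nearly coincide, and HIST1H2BK and HIST1H2AH lie 329 times apart.

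The first comparison, the one the study was designed for, was miR-217 mimic against mimic NC. No histone gene passed the test. Of 34 HIST-named genes, 17 were above and 17 below mimic NC, and limma gave an adjusted p under 0.05 for none and an unadjusted p under 0.05 for none. Of 9 other genes, 4 were above and 5 below, again with none at either threshold. Over all 13871 genes tested, 0 (0%) had an adjusted p under 0.05 and 165 (1.19%) an unadjusted p under 0.05, so the count among the histone genes was near the background. With limma voom on the recovered reads, no histone gene reached an unadjusted p under 0.05 either.

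The median difference was -0.0014 for HIST-named and -0.0044 for other genes on the log2(RPKM + 1) scale, beside -0.02 for all genes tested. The highest value was that of HIST1H2BJ, at 2.47 and 1.91 RPKM in mimic NC and 2.88 and 4.32 RPKM in miR-217 mimic. Its groups did not overlap, and its difference was 0.52 with SE 0.20 (limma, unadjusted p = 0.0538, adjusted p = 1). HIST2H2AA4 differed by 0.35 with SE 0.44 and HIST1H3B by 0.27 with SE 0.49. HIST1H2BO was lowest at -0.31 with SE 0.23, with 0.483 RPKM (6 reads) in miR-217 mimic number 2 against 1.22 to 1.33 RPKM in the other 3 libraries. HIST1H2AM and HIST1H2BD differed by -0.16 and -0.15, with SEs of 0.27 and 0.21. Of the exon bases of HIST1H2AM, 88.0% are also exon of HIST1H3J on the same strand.

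Among the other histone genes the highest differences were those of H3F3B (0.15, SE 0.13), H2AFX (0.14, SE 0.14) and H1FX (0.05, SE 0.18). The lowest were those of H1F0 (-0.25, SE 0.18), H3F3A (-0.10, SE 0.35) and H2AFJ (-0.04, SE 0.18). The groups did not overlap in 4 of 34 HIST-named and 2 of 9 other genes, beside 23.2% of all genes tested. With 2 libraries a group an exact permutation test cannot go below p = 0.333, so no single gene can be shown to differ that way.

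The seed of miR-217-5p pairs with the letters ATGCAGT in an mRNA. The mature sequence (RefSeq, GRCh38.p14, chr2:55983020-55983042, minus strand) and both sites found in annotated 3′UTRs of histone genes are shown. The sites are full matches to these letters in the longest annotated 3′UTR of a gene. Shorter matches and coding sequence were not searched. The seed, bases 2 to 8, and the matching letters are in capitals.
miR-217-5p: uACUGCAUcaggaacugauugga
H3F3A (chr1:226066686-226066692): catcagaagcATGCAGTtgggggtcgt
HIST1H2BN (chr6:27854005-27854011): aatcttcaaaATGCAGTtgtataaaat
Of 50 histone genes with an annotated 3′UTR, 2 (4%) held the site, and of the 30 that were expressed the same 2 (6.67%) did, beside 1440 of 9913 expressed genes (14.5%). H3F3A was at 41.2 and 23.8 RPKM in mimic NC and 36.7 and 23.0 RPKM in miR-217 mimic, a difference of -0.10 that did not pass the test. HIST1H2BN was at 2.06 and 1.43 RPKM in mimic NC and 1.98 and 1.62 RPKM in miR-217 mimic, a difference of 0.03 with SE 0.17. In both genes the groups overlapped. The HIST1H2BN site lies 1871 bases after the stop codon of a transcript longer than the RefSeq gene of 542 bases.

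The second comparison set the libraries numbered 2 against those numbered 1, since the number is a label that separated the libraries. HIST-named genes were lower in number 2 in 30 of 34, with a median of -0.35 on the log2(RPKM + 1) scale, beside -0.04 for all genes tested. With limma, 10 of 34 fell at an adjusted p under 0.05 and none rose. Over all genes 977 of 13871 (7.04%) passed that threshold, and 514 (3.71%) passed it in the lower direction. At an unadjusted p under 0.05 there were 18 of 34, all lower, beside 30.2% of all genes in either direction. Both libraries numbered 2 lay below both numbered 1 in 22 of 34, beside 35.5% of all genes. HIST1H2BF and HIST1H4E, among the 10 that fell, were under 1 RPKM in both libraries numbered 2. They passed the filter, a mean of at least 1 RPKM, only through the libraries numbered 1. Genes of the opposite pattern, such as HIST1H3E (mean 0.934 RPKM, higher in both libraries numbered 2), were not tested.

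The calls at an adjusted p under 0.05 depended on both libraries numbered 1 and on the filter, while the differences moved less. Without mimic NC number 1, or without miR-217 mimic number 1, only 1 library numbered 1 was left, and the calls among HIST-named genes were lost. Without mimic NC number 2, or without miR-217 mimic number 2, more HIST-named genes passed, and so did more of all genes tested. The median difference was -0.32 and -0.29 without those libraries numbered 1. That of HIST2H2BE, -1.17 with all 4 libraries, was then -1.06 and -1.28. With no filter on low values, 0 of 70 passed after adjustment and 22 had an unadjusted p under 0.05. Over all 32955 genes, 3 and 5645 did. With no filter the difference of HIST2H2BE was the same -1.17, and the median over all 70 HIST-named genes was -0.12. A pseudocount of 0.1 gave a median of -0.49 over the 34 genes. The counts over all genes moved likewise. They fell without a library numbered 1, rose without a library numbered 2 and went from 977 to 3 with no filter.

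Of the 10 that fell, 4 were H2B genes. HIST2H2BE was at 5.21 and 4.34 RPKM in the libraries numbered 1 and at 1.63 and 1.49 in those numbered 2, for mimic NC and miR-217 mimic in that order. Its level in number 2 was 0.327 times that in number 1, a difference of -1.17 with SE 0.10 (limma, adjusted p = 0.0157). HIST1H2BH was at 13.4 and 11.04 RPKM in number 1 and at 4.79 and 5.27 in number 2. The difference was -1.13 with SE 0.11 (limma, adjusted p = 0.0184), and the higher of both libraries numbered 2 was below the lower of both numbered 1. HIST1H2BG was at 7.25 and 6.37 RPKM in number 1 and at 2.77 and 2.52 in number 2, a difference of -1.10 with SE 0.09 (limma, adjusted p = 0.0147). HIST1H2BF was at 1.80 and 1.55 RPKM in number 1 and at 0.459 and 0.512 in number 2, where it rested on 26 and 20 reads. Its difference was -0.85 with SE 0.10 (limma, adjusted p = 0.0235). Its mean was 1.08 RPKM, so it was tested only because of its level in number 1.

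A further 4 were H2A genes. HIST2H2AA3, whose values are given above, was at 0.473 times its number 1 level in number 2 (limma, adjusted p = 0.0337). HIST1H2AE was at 7.39 and 5.45 RPKM in number 1 and at 2.82 and 3.13 in number 2, a difference of -0.89. It is the back-to-back neighbour of HIST1H2BG. Both genes were tested in 8 of the 13 pairs, and this was the only pair in which both passed. HIST3H2A was at 11.8 and 11.8 RPKM in number 1 and at 8.37 and 8.66 in number 2, a difference of -0.43. HIST1H2AK was at 3.69 and 4.34 RPKM in number 1 and at 2.09 and 1.64 in number 2, a difference of -0.81. All of the exon bases of HIST1H2AK lie opposite an exon of HIST1H2BN, and whether counting used the strand is not given in the sources used here. Under limma voom its adjusted p was 0.0541.

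The linker gene HIST1H1C differed by -0.58 with SE 0.07 (limma, adjusted p = 0.0243), with both libraries numbered 2 at 0.667 times those numbered 1 on average. HIST1H4E was the only H4 gene that passed, with a difference of -0.57. It was at 1.43 and 1.40 RPKM in number 1 and at 0.625 and 0.618 in number 2. With a mean of 1.02 RPKM, it was tested only because of its level in number 1. No H3 gene passed, although HIST1H3B had a difference of -0.96 with SE 0.24 (limma, unadjusted p = 0.00977). HIST2H2AA4 was near its copy with -0.88 and SE 0.21 (limma, unadjusted p = 0.00897). None of the HIST-named genes passed in the other direction, and the 3 highest differences were 0.28 for HIST1H2AC, 0.12 for HIST2H4A and 0.10 for HIST1H2BJ, with SEs of 0.15, 0.12 and 0.29.

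**Figure D5:**
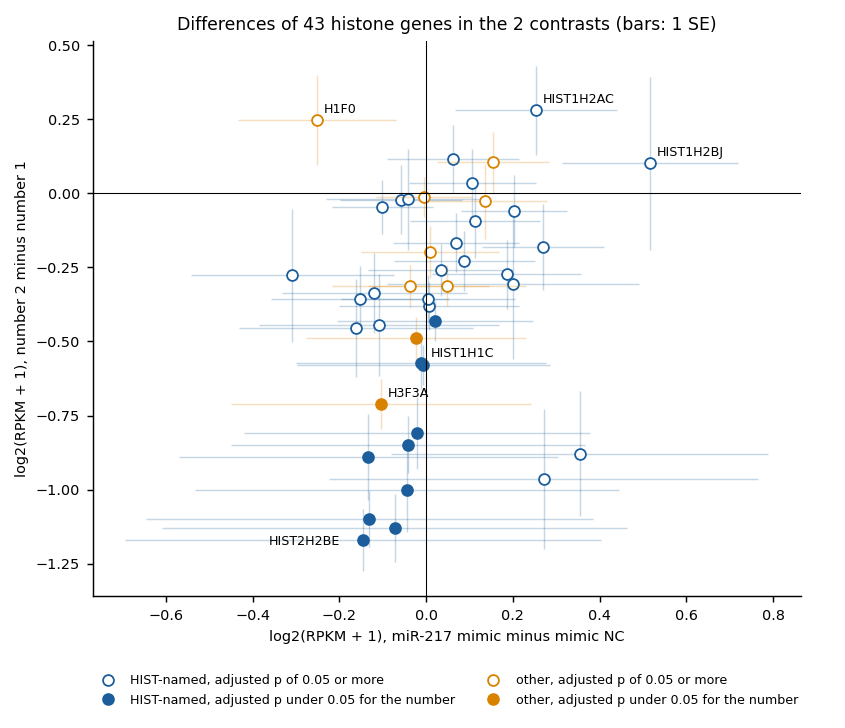
Difference on the log2(RPKM + 1) scale between miR-217 mimic and mimic NC (horizontal axis) and between number 2 and number 1 (vertical axis) for 34 HIST-named and 9 other histone genes, with bars of 1 SE and filled points for an adjusted p under 0.05 in the number comparison. The points spread from -0.31 to 0.52 across the mimic comparison and from -1.17 to 0.28 across the number comparison.

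Other histone genes gave 2 calls of 9, both lower, beside 7.04% of all genes called in either direction and 3.71% called lower. H3F3A was at 41.2 and 36.7 RPKM in number 1 and at 23.8 and 23.0 in number 2, a difference of -0.71 with SE 0.08 (limma, adjusted p = 0.0249). Its processed copy H3F3AP4 has values of like size, so the split of reads between the copies is uncertain. H2AFV fell by 0.49 with SE 0.07 (limma, adjusted p = 0.0343), as its values above show. H2AFJ and H1FX had differences of -0.31 each, with unadjusted p of 0.00782 and 0.00659 from limma, and did not pass after adjustment. H3F3B, which encodes the same protein as H3F3A, differed by 0.10 with SE 0.10, and H1F0 by 0.25 with SE 0.15. Whether H3F3A and H3F3B differ from each other in this was not tested. The median over the 9 genes was -0.20. With no filter, 0 of the other genes passed after adjustment. The calls were also lost without either library numbered 1, and there were more without either library numbered 2, as over all genes. The difference of H3F3A was -0.63 without mimic NC number 1 and -0.79 without miR-217 mimic number 1. With no filter it was -0.71, as in the reported fit.

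Annotated features were set beside the calls. Of the 21 tested HIST-named genes with a stem-loop 8 were called. Of the 10 counted over coding sequence only 2 were called (HIST1H1C and HIST1H2AK), and of the 3 with neither feature 0. A stem-loop could not be seen in the models of coding sequence only. Of 13 tested genes with an octamer in the promoter window 5 were called, and of 18 without it 5 were called, with median differences of -0.44 and -0.33. Of 20 genes with TATAAA 4 were called, and of 11 without it 6. Of 27 genes with CCAAT 9 were called, and of 4 without it 1 (HIST1H4E), with median differences of -0.38 and -0.11. No promoter was matched for the other 3 tested genes. By annotation, the 16 tested genes with a stem-loop and a poly(A) signal had a median of -0.36, the 5 with a stem-loop alone -0.85 and the 10 counted over coding sequence -0.23. The -0.85 is the value of HIST1H2BF, a gene tested only because of its level in number 1. These splits are descriptions and were not tested.

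Other measures moved with the number and their part in these differences was not tested. Both libraries numbered 2 were the less deeply sequenced of their group. RN7SK, an abundant RNA without a poly(A) tail, was at 41.8 and 44.4 RPKM in number 1 and at 58.2 and 57.0 in number 2, a rise of 0.41 (limma, adjusted p = 0.0432). RN7SL2 was at 31.0 and 38.9 RPKM in number 1 and at 42.5 and 63.5 in number 2, RN7SL1 at 25.8 to 35.3, and RPPH1 at 40.9 to 51.3 RPKM. The other 4 RNAs of this list, RMRP, RNY1, RNY3 and TERC, were under 1 RPKM in every library. Of the 4 tested genes of this list, 3 were above and 1 below in number 2, beside 6127 above and 7744 below of all genes tested. RN7SK was the gene that passed, beside 977 of 13871 genes (7.04%), and 4 genes are too few to set against that share.

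The machinery of histone supply was followed in a list of 45 genes for transcription, mRNA 3′ end processing, decay and chaperones, of which 43 were tested. With the mimic none had an unadjusted p under 0.05, and the median difference was 0.02. The groups did not overlap in 17 of 43, beside 23.2% of all genes tested, and this excess was not tested. NPAT, the co-activator of histone genes, was at 2.08 to 2.70 RPKM and differed by -0.13 with SE 0.13. SLBP was at 28.8, 28.0, 29.1 and 25.9 RPKM in mimic NC numbers 1 and 2 and miR-217 mimic numbers 1 and 2, and differed by -0.05 with SE 0.13. The highest differences with the mimic were 0.19 for TONSL, a reader of new histones, and 0.18 for UPF1, a decay helicase, and the lowest were -0.25 for CDK2 and -0.25 for ATRX.

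Between numbers, 2 of the 43 passed after adjustment, beside 7.04% of all genes tested, so the list was not above the background. Both are chaperones. ASF1B, an H3 and H4 chaperone, was at 8.52 and 8.77 RPKM in number 1 and at 5.86 and 6.33 in number 2, and fell by 0.44 (limma, adjusted p = 0.042). NAP1L1, an H2A and H2B chaperone, was at 62.5 and 62.1 RPKM in number 1 and at 80.1 and 85.3 in number 2, a rise of 0.40 (limma, adjusted p = 0.0445). NASP differed by 0.24 and CCNE1, the cyclin that drives entry into S phase, by -0.32, and neither passed after adjustment. SLBP and NPAT differed by -0.10 and -0.13 and did not pass either. The list's median was -0.03, beside -0.04 for all genes tested.

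Replication-dependent histone mRNA is tied to S phase, so 20 S phase genes were set beside the members. With the mimic 18 of 20 were above mimic NC, beside 6157 of 13871 genes, and the median was 0.12. None had an unadjusted p under 0.05, and the groups did not overlap in 6 of 20, beside 23.2% of all genes tested. The median was 0.03 without mimic NC number 2 and 0.03 without miR-217 mimic number 1. Leaving out a library makes the replicate numbers unequal between the groups, and the medians without the other libraries are not given here. These values therefore do not show whether the median of 0.12 rests on 1 library. The highest differences were 0.22 for TYMS and 0.21 for CDT1, and the lowest were -0.15 for RFC2 and -0.05 for CDC6. Between numbers, none passed after adjustment, while 5 were lower and 2 higher at an unadjusted p under 0.05, beside 30.2% of all genes in either direction. TK1 (-0.50), MCM5 (-0.47), CDT1 (0.37) and CDC45 (0.23) were the extremes. The median was -0.11, less far from 0 than the -0.35 of the HIST-named genes, a difference that was not tested.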

How the data were processed

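RNA-seq was measured in 2 mimic NC and 2 miR-217 mimic libraries of MDA-MB-231. The authors deposited 1 table of RPKM values with the exon coordinates, strand and length of 32955 genes. The submitters' processing notes name Trimmomatic 0.36, featureCounts, Subread 1.5.1, edgeR 3.12.1 and hg38. The annotation and the use of strand are not given in the sources used here. Multiplied by length, RPKM summed to 1000000 per library and 100% of the values came out as whole reads within 0.01 reads, which gave the read totals. Depth limits low genes most in miR-217 mimic number 2.

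Groups, numbers and columns were taken from the labels. Values were tested on log2(RPKM + 1), which understates changes of low genes, keeping the 13871 whose mean RPKM reached 1, with limma 3.58.1 in R 4.3.3 (lmFit, eBayes with a variance trend, two-sided, Benjamini-Hochberg over all genes tested), for group and, separately, for number, each as the only term. Differences are given in this scale and ratios on RPKM. On simulated counts with 200 genes changed, 91.1% of the 192 changed genes tested in the group fit on 13861 genes were called, with 32 false calls. In the number fit on 13879 genes, 92.2% of 193 were called. The simulated spread between libraries was small (dispersion 0.01), and the counts for the group fit held no difference between numbers. These shares therefore do not give how many real changes the group fit could call in these libraries.

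Members and lists were chosen with earlier results of these data known. Of HIST-named and of other genes, the text names the 6 of highest mean, the 3 highest and 3 lowest differences in each comparison and those at an unadjusted p under 0.05 (the 5 smallest where over 10). Of the supply and S phase lists it names SLBP, NPAT and the 2 highest and 2 lowest differences. All RNAs without a poly(A) tail and the near-identical copies are named. The called genes HIST1H2AE, HIST1H2AK, HIST3H2A and HIST1H4E, the pairs, and the remaining members given as levels were chosen after their values were seen. Transcripts were those of GENCODE 29, and promoters and miRNAs those of RefSeq GRCh38.p14. All 84 members lay where GENCODE places them, and 82 had its exon length. The alternatives used no filter, a mean of at least 5, a pseudocount of 0.1, median centring, limma voom on the recovered reads, a replicate block or group term, and leaving out each library. Plots were made with Python 3.11.15 and matplotlib 3.10.9.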

Additional observations from a re-analysis of the deposited data

Results flagged for a closer look

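In 5 of the histone genes that the naming rule picked, the library numbered 2 lay on opposite sides of the library numbered 1 in mimic NC and in miR-217 mimic. Each side is 1 library, and the difference between the groups was not tested. HIST1H2BJ differed by -0.25 on the log2(RPKM + 1) scale in mimic NC and by 0.46 in miR-217 mimic. HIST1H2BO differed by 0.07 and -0.62, where the last value rests on 6 reads. HIST1H2BK differed by -0.14 and 0.21, HIST2H4A by -0.08 and 0.32, and H2AFX by -0.23 and 0.17. HIST1H4I (-0.16 and 0.04) and H2AFY (-0.04 and 0.02), given above for their levels, did so too. Over the tested genes the direction differed between the groups in 10 of 34 HIST-named and 2 of 9 other genes. Groups of 2 libraries are too small for a test of outlying libraries.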

How the results depend on the processing

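With the mimic no histone gene passed after adjustment under any alternative run, and the same held for the supply and S phase lists. For the number, 10 HIST-named and 2 other genes passed in the reported fit. With no filter 0 and 0 passed, beside 3 of all 32955 genes. With a mean of at least 5 RPKM 5 of 11 HIST-named and 3 of 9 other genes did, beside 1097 of all 6953 genes. Leaving out a library gave 0 to 18 HIST-named and 0 to 4 other genes. Where calls were lost, the differences of named genes were of like size. With no filter those of HIST1H2BG and HIST1H1C were -1.10 and -0.58 as reported, and without a library numbered 1 they were -1.02 and -1.18 for HIST1H2BG and -0.57 and -0.59 for HIST1H1C. The cause was not tested. For the mimic, leaving out a library moved the median of HIST-named genes from -0.20 to 0.26 and that of other genes from -0.16 to 0.15, and up to 4 HIST-named genes then had an unadjusted p under 0.05. The ratio of summed levels was 1.53, where 70 HIST-named genes were summed against 14 other genes. It became 0.366 as a share of reads, because the other genes have longer models. As a median over members, which does not add up unequal numbers of genes, it was 0.102, and more of the HIST-named genes are near 0. Over all genes the count for the number was 977 in the reported fit, 3 with no filter, 2175 with limma voom, and 9 to 3917 without a library. For the mimic, unadjusted calls over all genes were 165, and 877 with no filter, 81 with voom, 1046 with the replicate block and 873 without miR-217 mimic number 1.

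Libraries of the same number deviated together (correlation 0.68 over 2 pairs), and the first principal component, 71.3% of the variance, followed the number. Whether the number marks a shared culture or day is not stated. With the replicate block, 0 HIST-named genes passed after adjustment for the mimic. At an unadjusted p under 0.05 there were 2 HIST-named and 3 S phase genes (0 and 0 without the block). Over all genes tested there were 1046, beside 165 without the block. With the group in the number fit, 11 HIST-named and 2 other genes passed, beside 1163 of all 13871 genes (977 without the group). The quasi-likelihood count test planned on recovered reads was not run, and limma voom was the test made on those reads. Low depth limits genes under 1 RPKM.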

Other observations

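H3F3AP4, a processed copy of H3F3A that the choice by name left out, was at 44.0 and 41.4 RPKM in the libraries numbered 1 of mimic NC and miR-217 mimic and at 27.3 and 26.8 RPKM in those numbered 2. H3F3A was at 41.2, 36.7, 23.8 and 23.0 RPKM in the same order, and reads shared by the copies cannot be told apart. Another copy, H3F3AP6, was at 0.719 to 2.01 RPKM and did not follow that order.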
